A study of Mus musculus with 8 samples.

Results

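The cytochrome P450 enzymes of families 1, 2 and 3 were followed in the livers of Snd1 knockout mice. The members were all genes whose platform symbol began with Cyp1a, Cyp1b, Cyp2 and a letter, or Cyp3a, which gave 45 genes on 62 probes of the bead array. A gene was counted when 1 of its probes was detected (p-value under 0.05 against the negative control beads) on 4 or more of the 8 arrays, and 25 of the 45 members were counted, of 8134 genes counted on the whole array. The arrays held left liver lobe RNA of 4 Snd1 KO mice and 4 wild type (WT) mice, 1 array per animal, all male C57BL/6N mice 8 to 12 weeks old that were not fasted. The study made the line in embryonic stem cells of another strain, backcrossed it to C57BL/6N and used littermates born to heterozygous parents. The KO mice lack the first exon of Snd1, which was flanked by loxP sites and removed by crossing with mice that express Cre recombinase. The exon was deleted in the germline, so the deletion was not restricted to hepatocytes. Snd1 binds RNA and combines nuclease-like repeats with a Tudor domain.

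Cytochrome P450 enzymes are haem proteins of the endoplasmic reticulum that insert an oxygen atom into their substrates, with electrons passed to them by P450 oxidoreductase and cytochrome b5. Families 1 to 3 act mostly on drugs, toxins, steroids and fatty acids, and in the liver most of them are found in hepatocytes. The Cyp1 genes are switched on by the aryl hydrocarbon receptor (AhR), and many Cyp2b, Cyp2c and Cyp3a genes by the nuclear receptors CAR and PXR. Many are most abundant in the hepatocytes around the central vein, whereas Cyp2f2 marks the hepatocytes around the portal vein. In mice several P450 genes also differ between the sexes, and Cyp2d9 is a classical male-biased member. Most members lie in clusters of close paralogs, so a probe of one gene can bind transcripts of its neighbours, and values of single Cyp2a, Cyp2c, Cyp2d and Cyp3a genes are uncertain to that extent.

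The upstream sequences of the Cyp2d genes are shown because this subfamily held the largest negative fold change, and that of Cyp2a5 because it had the largest positive fold change. They were taken from RefSeq (build GRCm38.p6), where 20 of the 25 counted genes had an entry; Cyp2d12, Cyp2d13, Cyp2d22, Cyp2g1 and Cyp2u1 were the others. Each sequence runs 5′ to 3′ over the 120 bases before the annotated start, and capitals mark a match to TATAAA on either strand, which reads TTTATA where the match is on the opposite strand.
Cyp2d40 (chr15:82764123-82764242, minus strand): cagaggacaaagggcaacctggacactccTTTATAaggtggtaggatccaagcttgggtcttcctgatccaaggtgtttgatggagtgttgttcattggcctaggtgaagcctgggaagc
Cyp2d9 (chr15:82452257-82452376, plus strand): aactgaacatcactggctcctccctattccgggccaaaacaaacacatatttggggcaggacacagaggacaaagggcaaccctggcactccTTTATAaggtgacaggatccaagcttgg
Cyp2d10 (chr15:82407195-82407314, minus strand): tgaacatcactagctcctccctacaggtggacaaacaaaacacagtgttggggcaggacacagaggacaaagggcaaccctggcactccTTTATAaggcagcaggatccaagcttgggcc
Cyp2d26 (chr15:82794246-82794365, minus strand): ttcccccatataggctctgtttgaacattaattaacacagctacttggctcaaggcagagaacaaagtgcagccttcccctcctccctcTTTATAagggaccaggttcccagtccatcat
Cyp2a5 (chr7:26835219-26835338, plus strand): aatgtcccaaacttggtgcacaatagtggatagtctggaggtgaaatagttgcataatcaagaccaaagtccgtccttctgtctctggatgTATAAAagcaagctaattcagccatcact
Each of the 5 windows held 1 match. Counted back from the start, its first base lay at −28 in Cyp2d9, −29 in Cyp2a5 and −31 in Cyp2d10 and Cyp2d26, but at −91 in Cyp2d40. Over the 250 bases before the start Cyp2d9 and Cyp2d10 were identical at 82.8% of aligned positions, with an unbroken identical run of 51 bases, and Cyp2d40 shared a run of 19 bases with both, which began at −120 in Cyp2d40 and at −57 in Cyp2d9. Within 250 bases before and 50 after the start, TATAAA was present on either strand in 13 of the 20 counted members, against 14.2% of the 27025 genes with a RefSeq window. Such a match is a description of the letters, not a binding site.

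A second sequence is shown because a few members of both the Cyp2c and the Cyp3a genes carried it. This sequence and TATAAA came from a wider search that also held GCGTG, TTATGNAA and TTCNNNGAA. Of the 20 counted members, GCGTG was found in 1, TTATGNAA in 1 and TTCNNNGAA in 0. Their shares over all genes were 32.5%, 3.52% and 8.47%. CAAAGTCCA, which resembles the binding sequence of the hepatocyte nuclear receptor HNF4A, was found on either strand in 3 of the 20 counted members and in 7 of the 39 members of the array with an entry, against 0.477% of all genes, and it did not overlap a TATAAA match. The windows run from −130 to −51, with the match in capitals.
Cyp3a11 (chr5:145879905-145879984, minus strand): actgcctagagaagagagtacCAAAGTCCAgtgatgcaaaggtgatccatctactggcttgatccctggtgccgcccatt
Cyp2c67 (chr19:39649093-39649172, minus strand): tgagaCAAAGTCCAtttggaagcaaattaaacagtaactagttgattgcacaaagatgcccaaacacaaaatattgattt
Cyp2c70 (chr19:40187337-40187416, minus strand): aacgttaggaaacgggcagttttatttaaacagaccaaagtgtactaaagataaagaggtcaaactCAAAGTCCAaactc
The 4 further members with a match, Cyp2c40, Cyp2c65, Cyp3a16 and Cyp3a41a, were not detected on any array. The log2 fold changes of the 3 genes shown ran both ways, 0.76 for Cyp3a11, 0.25 for Cyp2c67 and −0.18 for Cyp2c70, and none of them passed the test.

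Between 10684 and 12134 probes were detected per array, and the correlation between any pair of arrays across genes was 0.957 to 0.993. Mean probe intensity before normalization was 215 on KO 1 and 223 on KO 4, against 281 and 290 on the other KO arrays and 262 to 283 on the WT arrays. The probe of Snd1 itself was not detected on any KO array and was detected on all 4 WT arrays (4.203 ± 0.038 on the log2 scale in KO and 6.79 ± 0.05 in WT, SD, n = 4 each, adjusted p = 3.03e-07 with limma), at least 4.90-fold lower in KO. Hepatocyte markers summed to 113380 to 123220 intensity units on KO arrays and 116680 to 125590 on WT arrays. Of the 9 measured 0 passed the test. Most of the 9 were among the brightest probes, which quantile normalization brings to similar levels on all arrays. The sums therefore say little about a difference between the groups. The Alb probe was near background (4.79 in KO and 4.63 in WT), and those of Fgb and Tat were not detected on any array. In a whole liver extract fewer cells of a type and less RNA per cell cannot be told apart. Precision is limited by the number of arrays, 4 in each group.

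Of the 25 counted members 2 were lower in KO livers and 0 were higher at an adjusted p under 0.05 (limma, Benjamini-Hochberg over the 8134 genes). Both, Cyp2d40 and Cyp2d12, belong to the Cyp2d cluster. Among all genes 1.36% were called lower, 1.18% higher and 2.54% in either direction, and the count is given as a description. Cyp2d12 passed the detection filter through the WT arrays alone, so its difference helped to select it. Among the 24 members detected in both groups 1 was called lower, Cyp2d40. The members did not move one way: 13 fold changes were above 0 and 12 below, and their median was 0.03 on the log2 scale beside −0.0014 over all genes. The size of the differences was moderate, from −1.19 for Cyp2d40 to 0.81 for Cyp2a5, with a median absolute log2 fold change of 0.22 against 0.15 over all genes. An unadjusted p under 0.05 was found in 9 members (36%), beside 17.4% of all genes. Among the 24 members detected in both groups it was found in 8 (33.3%), and the median absolute log2 fold change of the 24 was 0.20. Of all genes called, 46.4% were higher in KO, but 14.4% were when arrays were scaled to a common median instead, and then Cyp2d40 and Cyp2d9 were called and the median of the members was −0.16.

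**Figure D1:**
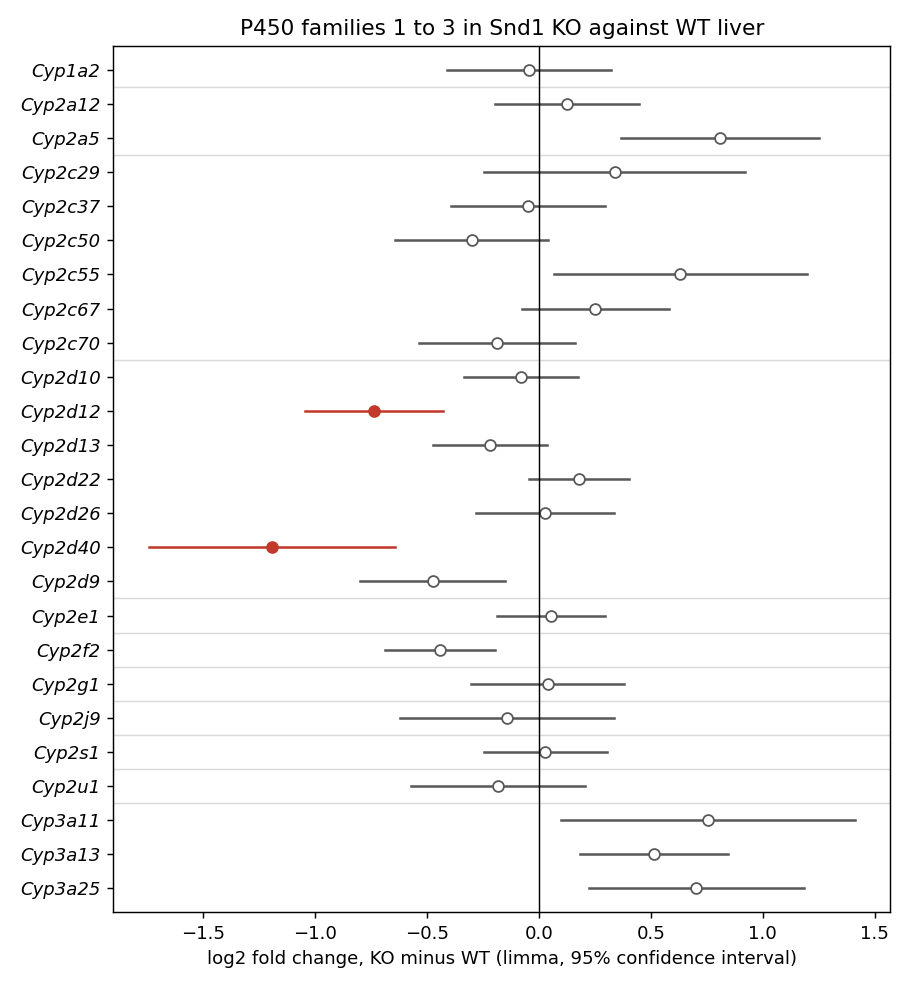
Log2 fold change (KO minus WT, x axis) of the 25 counted P450 genes, by subfamily down the page, with 95% confidence intervals from limma; filled red points are the genes with an adjusted p under 0.05. Cyp2d40 and Cyp2d12 lie to the left of 0, the Cyp3a genes and Cyp2a5 lie to the right without passing the test, and most others span 0.

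The groups did not overlap in 6 members, Cyp2a5 and Cyp3a13 with all KO arrays above all WT arrays and Cyp2d9, Cyp2d12, Cyp2d40 and Cyp2f2 with all KO arrays below. Over all genes 10.8% did not overlap, and without Cyp2d12 the share was 20.8% of 24 members. The subfamilies differed in their medians. The median log2 fold change was 0.70 over the 3 Cyp3a genes, all above 0, 0.47 over the 2 Cyp2a genes, 0.10 over the 6 Cyp2c genes and −0.22 over the 7 Cyp2d genes, of which 5 were below 0. The Cyp2d values include Cyp2d12, which passed the detection filter through its WT arrays alone. These medians are descriptions and the differences between subfamilies were not tested.

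The Cyp2d subfamily, whose human relative metabolises many drugs, contained the largest fall. Cyp2d40, a gene of the mouse Cyp2d cluster, read 9.38, 8.16, 8.32 and 8.17 on the log2 scale in KO 1 to KO 4, against 9.44, 9.86, 9.68 and 9.81 in WT 1 to WT 4. The level was low on 3 KO arrays, while KO 1 lay just under the lowest WT array, so the groups did not overlap by a narrow margin. Its fold change was −1.19 ± 0.25 (SE, adjusted p = 0.0356 with limma), or 2.28-fold lower in KO. Before normalization its intensity was 311 to 559 on KO arrays and 846 to 1023 on WT arrays. The fold change was −1.04 both in the processed values of the authors and without background correction, where the call ended (adjusted p = 0.0554 and 0.0556), as it did with no detection filter (adjusted p = 0.106). It also ended when KO 2, KO 3, KO 4, WT 2, WT 3 or WT 4 was left out (adjusted p up to 0.117), and without KO 1 the fold change was −1.48 (adjusted p = 3.25e-04).

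Cyp2d12, a neighbour of Cyp2d9 in the same cluster, was not detected on any KO array and was detected on all 4 WT arrays. It read 4.20, 4.19, 4.18 and 4.21 in KO 1 to KO 4, against 4.63, 5.31, 4.88 and 4.92 in WT 1 to WT 4. The KO arrays were all at background and every WT array was above them. Its level in KO was at least 1.35-fold lower (fitted log2 fold change −0.73 ± 0.14 SE, adjusted p = 0.0264 with limma). Since the gene was counted only because of its WT arrays, this p is no independent measure of the difference. The intensities before normalization were close to each other, 83.0 to 90.5 on KO arrays and 99.1 to 112 on WT arrays, so the probe was dim in both groups. Leaving out KO 2, KO 3, WT 2, WT 3 or WT 4 ended the call (adjusted p up to 0.0957), and the size depends on the background correction, with −0.31 at an offset of 50 (adjusted p = 0.0668).

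Cyp2d9, a steroid 16-alpha-hydroxylase that male mice express at a high level, read 13.002, 12.37, 12.71 and 12.997 in KO 1 to KO 4, against 13.28, 13.17, 13.25 and 13.26 in WT 1 to WT 4. All KO arrays were below all WT arrays, and the KO arrays were spread over a wider range than the WT arrays. The fold change of −0.47 ± 0.15 (SE) did not pass the test (adjusted p = 0.125 with limma), but it did with median scaling (−0.68, adjusted p = 0.038). Of the further Cyp2d genes, Cyp2d13, which the RefSeq table lists as a transcribed pseudogene, was at −0.22, Cyp2d10 at −0.08, Cyp2d26 at 0.03 and Cyp2d22 at 0.18, and none passed the test (adjusted p of 0.362 to 0.951). With median scaling, which shifted the median of all genes to −0.05, Cyp2d22 and Cyp2d26 were below 0. Cyp2d34 was not detected on any array.

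The Cyp2d genes lie side by side on chromosome 15, and their values can be read along it. In the order of the RefSeq table the measured genes are Cyp2d22, Cyp2d10, Cyp2d9, Cyp2d12, Cyp2d13, Cyp2d40 and Cyp2d26. In this order their log2 fold changes were 0.18, −0.08, −0.47, −0.73, −0.22, −1.19 and 0.03. Cyp2d12 was counted through its WT arrays alone, so its difference helped to select it. Cyp2d9 and Cyp2d10, the neighbours with the similar upstream sequences shown above, had fold changes of −0.47 and −0.08. Whether the fold changes of these paralogs differ from each other was not tested.

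**Figure D2:**
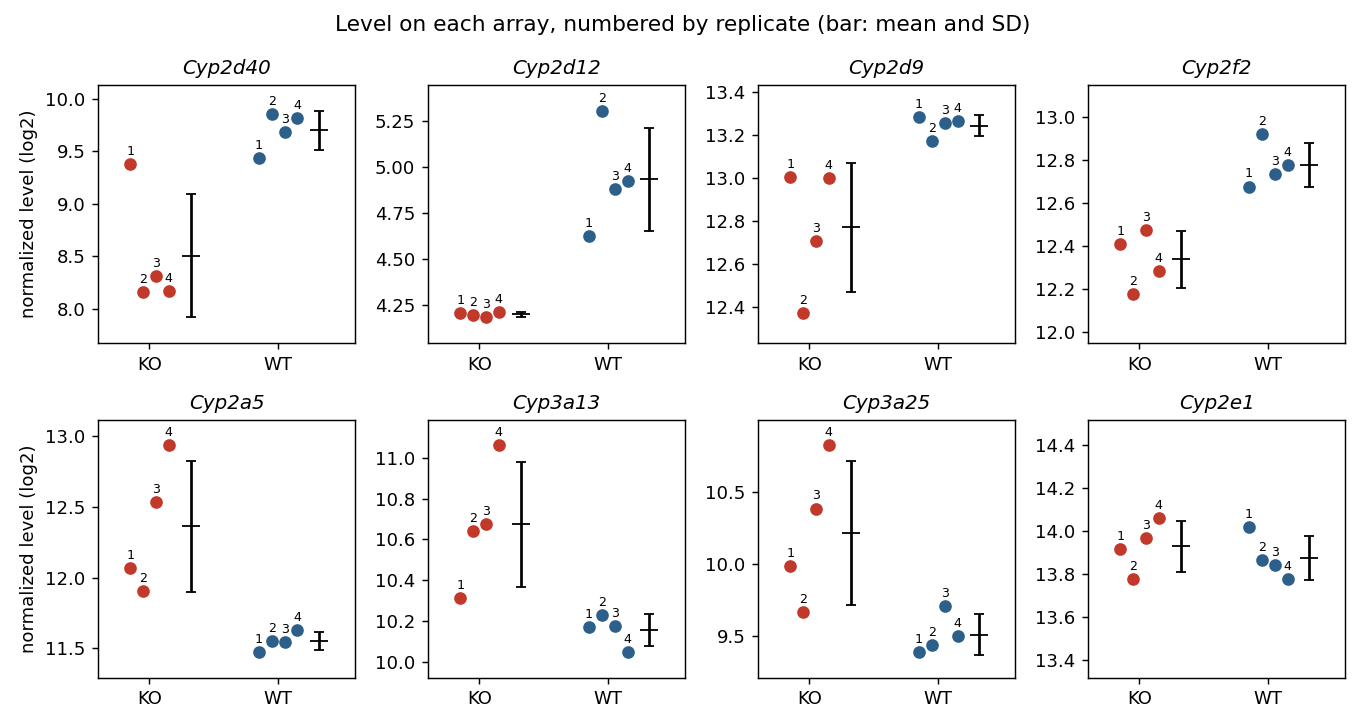
Normalized level (log2, y axis) of 8 members on each of the 4 KO arrays (red) and 4 WT arrays (blue), numbered by replicate, with the mean and SD in black. Cyp2d40 is low on 3 of the 4 KO arrays, Cyp2d12 sits at background on all 4, and the KO arrays of Cyp2a5, Cyp3a13 and Cyp3a25 spread upward from the WT arrays while Cyp2e1 overlaps.

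Cyp2a5, which hydroxylates coumarin and nicotine and is a mouse relative of human CYP2A6, had the largest positive fold change among the members. It read 12.07, 11.91, 12.54 and 12.93 in KO 1 to KO 4, against 11.48, 11.56, 11.55 and 11.63 in WT 1 to WT 4. All KO arrays were above all WT arrays, by the least margin in KO 2 and the most in KO 4. Its fold change of 0.81 ± 0.20 (SE), or 1.75-fold, did not pass the test (adjusted p = 0.063 with limma). It passed in 3 of 18 alternatives: without KO 1 (adjusted p = 0.0312), without KO 2 and with array weights (adjusted p = 7.24e-04). With median scaling the adjusted p was 0.245. All 4 kept probes of Cyp2a5 were higher on average in KO, by 0.37 to 1.10, and 2 of them had groups that did not overlap. The paralog Cyp2a12 was at 0.13 (adjusted p = 0.711), and below 0 with median scaling. Cyp2a4, which is close to Cyp2a5 in sequence, had no probe among the members, so its transcripts could add to the Cyp2a5 probes.

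**Figure D3:**
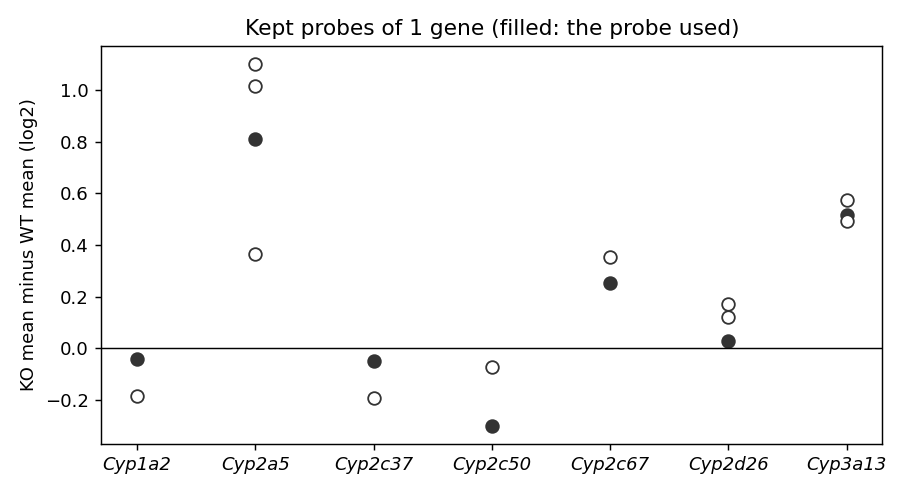
Difference between the KO mean and the WT mean (log2, y axis) for each kept probe of the 7 members with more than 1 kept probe; the filled point is the probe used in the comparison. Probes of a gene lie on the same side of 0, and those of Cyp2a5 spread from 0.37 to 1.10 and those of Cyp3a13 from 0.49 to 0.57.

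The Cyp3a enzymes hydroxylate steroids and a large share of drugs, and Cyp3a11 is the main PXR-inducible member in mouse liver. Cyp3a11 read 10.55, 9.93, 10.76 and 11.53 in KO 1 to KO 4, against 10.35, 9.50, 9.99 and 9.90 in WT 1 to WT 4. KO 2 lay within the WT range and KO 4 far above it, so the groups overlapped, and the fold change of 0.76 ± 0.30 (SE) did not pass the test (adjusted p = 0.221 with limma). Cyp3a25 read 9.99, 9.67, 10.38 and 10.82 in KO 1 to KO 4, against 9.39, 9.44, 9.71 and 9.50 in WT 1 to WT 4. Only KO 2 fell below the highest WT array (0.70 ± 0.22 SE, adjusted p = 0.124).

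Cyp3a13, a member with a wider tissue range, read 10.32, 10.64, 10.68 and 11.06 in KO 1 to KO 4, against 10.17, 10.23, 10.18 and 10.05 in WT 1 to WT 4. Every KO array was above every WT array, although KO 1 only just. Its fold change was 0.52 ± 0.15 (SE, adjusted p = 0.106 with limma), its 3 kept probes gave 0.49 to 0.57, and it passed the test without KO 1 (0.63, adjusted p = 0.0203). Cyp3a16, Cyp3a41a and Cyp3a44, which are more abundant in females or before maturity, were not detected on any array.

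The Cyp2c genes, several of which make epoxides of arachidonic acid, ran in both directions. Cyp2c55, an inducible member, had the lowest p among them. It read 4.97, 5.63, 5.71 and 6.29 in KO 1 to KO 4, against 5.38, 4.72, 5.20 and 4.77 in WT 1 to WT 4. KO 1 lay among the WT arrays and the other 3 KO arrays above them, and the fold change of 0.63 ± 0.25 (SE) did not pass the test (adjusted p = 0.231). Cyp2c29 was at 0.34 and Cyp2c67 at 0.25, while Cyp2c50 was at −0.30, Cyp2c70 at −0.18 and Cyp2c37 at −0.05, with adjusted p from 0.35 to 0.914, and in each of these 5 genes the groups overlapped. Cyp2c38, Cyp2c39, Cyp2c40 and Cyp2c65 were not detected on any array.

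Cyp2f2, the portal member, activates naphthalene and other small molecules. It read 12.41, 12.18, 12.47 and 12.28 in KO 1 to KO 4, against 12.68, 12.92, 12.73 and 12.78 in WT 1 to WT 4. All KO arrays were below all WT arrays, and the spread was similar in both groups (SD 0.13 in KO and 0.10 in WT, n = 4 each). The fold change of −0.44 ± 0.11 (SE) did not pass the test (adjusted p = 0.0657 with limma). It did at an offset of 50 (adjusted p = 0.0381), without background correction (adjusted p = 0.0331) and in the processed values of the authors (adjusted p = 0.0328). The fold changes there were −0.43 to −0.44. Cyp2f2 passed in 5 of 18 alternatives, and the adjusted p was up to 0.195. It did not pass with median scaling (adjusted p = 0.0871) or a replicate block (adjusted p = 0.156).

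Cyp2e1, which oxidises ethanol, acetone and small solvents and is a marker of the hepatocytes around the central vein, read 13.92, 13.78, 13.97 and 14.06 in KO 1 to KO 4, against 14.02, 13.86, 13.84 and 13.78 in WT 1 to WT 4. The groups overlapped over almost their whole range. The fold change was 0.05 ± 0.11 (SE), with a 95% interval from −0.18 to 0.29 (adjusted p = 0.849), and its sign turned with median scaling. Cyp1a2, which metabolises caffeine and is induced through AhR, read 11.56, 10.999, 11.37 and 11.80 in KO 1 to KO 4, against 11.35, 11.66, 11.53 and 11.37 in WT 1 to WT 4. KO 2 was the lowest array of all and KO 4 the highest (−0.04 ± 0.17 SE, 95% interval −0.41 to 0.32, adjusted p = 0.931). Cyp1a1, the other AhR-controlled member of that subfamily, was not detected on any array.

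Cyp2u1, a fatty acid hydroxylase, read 4.99, 5.34, 5.34 and 5.36 in KO 1 to KO 4, against 5.27, 5.74, 5.74 and 5.02 in WT 1 to WT 4. KO 1 stood below the other KO arrays, which were nearly equal, while the WT arrays were spread on both sides of them. The fold change was −0.18 ± 0.18 (SE, adjusted p = 0.645), and −0.09 without KO 1. Single members of the remaining subfamilies lay near 0. Cyp2j9, of the epoxygenases, was at −0.14, Cyp2g1, known from olfactory tissue, at 0.04 and Cyp2s1, an extrahepatic member, at 0.03 (adjusted p 0.79 to 0.938). Cyp2g1 was detected on 3 KO and 3 WT arrays and Cyp2s1 on 2 KO and 2 WT arrays, so Cyp2s1 and Cyp2d12 stood at the limit of 4 detected arrays.

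Of the 20 members not counted, 16 had no detected probe on any array. These were Cyp1a1, Cyp2b13, Cyp2b19, Cyp2c38, Cyp2c39, Cyp2c40, Cyp2c65, Cyp2d34, Cyp2j5, Cyp2j6, Cyp2j11, Cyp2j13, Cyp2r1, Cyp3a16, Cyp3a41a and Cyp3a44. A probe without detection does not show that its gene is silent. Of the 2 probes of Cyp2c29, 1 was not detected on any array and the other was detected on all 8. Just outside the limit was Cyp1b1, an AhR-controlled enzyme mostly found outside hepatocytes, with 3 KO arrays and 0 WT arrays. A probe of Cyp2b10, the main CAR target in mouse liver, was detected on 2 KO and 0 WT arrays, and its other probe on 0 KO arrays and 1 WT array.

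The Cyp2b genes also held the array that stood farthest from its group. Cyp2b9, a female-biased gene, read 7.12, 4.38, 4.29 and 4.38 in KO 1 to KO 4, against 4.17, 4.21, 4.23 and 4.20 in WT 1 to WT 4. It was detected on KO 1 alone, where the signal was far above all other arrays. Cyp2b23 was also detected on KO 1 alone (5.08), with 4.35 to 4.37 on the other KO arrays and 4.15 to 4.33 on WT arrays. Neither gene was in the main comparison, since both were under the detection limit. With no detection filter, where all 45 members were fitted, 0 were called.

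KO arrays were more variable than WT arrays over the members as a whole. The SD was larger in KO than in WT in 22 of the 25 members (88%), beside 70.3% of all genes, and the median SD was 0.29 in KO and 0.12 in WT, beside 0.22 in KO and 0.15 in WT over all genes. The spread had an order. KO 4 was the highest of the KO arrays in 17 of the 25 members and the lowest in 0, and KO 2 was the lowest in 17 and the highest in 1. Over all genes KO 4 was the highest KO array in 32.1% and KO 2 the lowest in 20.2%. The members share their arrays and several share sequence, so they are not independent counts of this order.

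**Figure D4:**
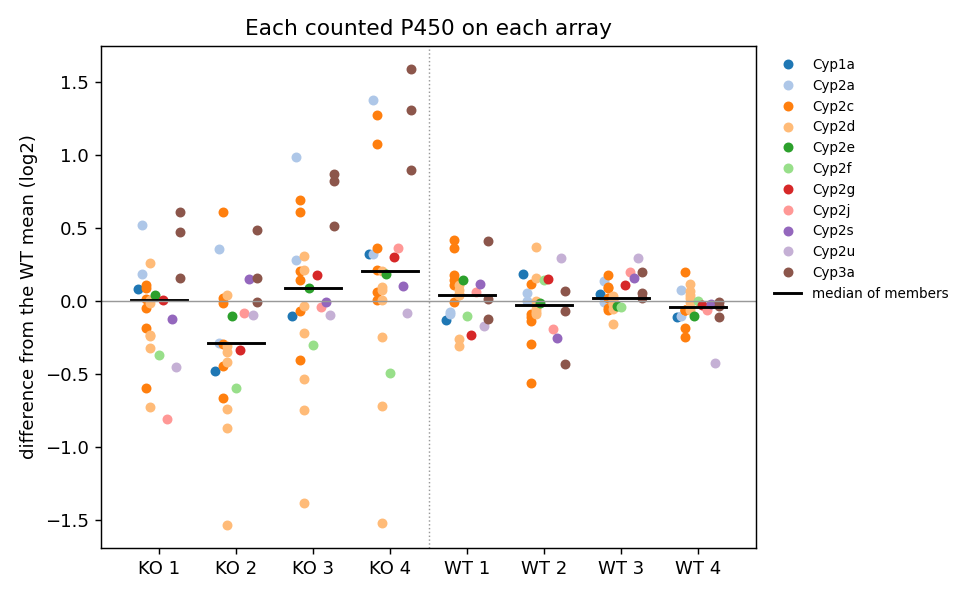
Difference of each of the 25 counted members from its WT mean (log2, y axis) on each KO and WT array (x axis), with colours for subfamilies and a black bar for the median of the members. The median lies lowest in KO 2 (−0.29) and highest in KO 4 (0.21), and between −0.04 and 0.04 on the WT arrays.

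The median member lay at 0.01, −0.29, 0.09 and 0.21 from the WT mean in KO 1 to KO 4, against 0.04, −0.02, 0.02 and −0.04 in WT 1 to WT 4. Over all genes the same medians lay between −0.02 and 0.01 on every array. The median of the Cyp3a genes was above the WT mean on every KO array, at 0.48, 0.16, 0.82 and 1.31 in KO 1 to KO 4. Cyp3a11 itself lay just under its WT mean on KO 2 (9.926 against 9.934). The Cyp2d medians, with Cyp2d12 included, were −0.23, −0.42, −0.22 and 0.01. KO 1 and KO 4 were the dim arrays before normalization, and KO 2 and KO 3 were not. Without KO 1 and KO 4 the calls were Cyp2d40 (−1.47, adjusted p = 0.0014), Cyp2d9 (−0.70, adjusted p = 0.025) and Cyp3a13 (0.50, adjusted p = 0.0498), and Cyp2d12 was at −0.79 (adjusted p = 0.052). The part of array brightness in the spread among KO livers was not tested.

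The members were then read by what controls them, from lists of genes that could be set beside them. Over all genes 1.18% were called higher and 1.36% lower, to be read beside the counts in each list. Of 15 P450 genes inducible by CAR or PXR, 8 were measured, 6 of these were above 0, and the median was 0.57, with 0 called. Of the 18 target genes of these receptors outside the P450s, 11 were measured, 9 were above 0 and 1 was higher, the glutathione transferase Gstm1. It read 11.56, 11.62, 11.84 and 11.73 in KO 1 to KO 4, against 11.25, 11.11, 11.05 and 10.75 in WT 1 to WT 4. The groups did not overlap (0.64 ± 0.13 SE, adjusted p = 0.0313). The retinal dehydrogenase Aldh1a1 was at −0.62 and the organic anion transporter Slco1a4 at 0.67, and neither passed the test (adjusted p of 0.101 and 0.183). The call of Gstm1 ended without KO 2, KO 3, KO 4, WT 2, WT 3 or WT 4 (adjusted p up to 0.108). It also ended with median scaling (0.45, adjusted p = 0.417) and with the mean of its 2 kept probes (0.38, adjusted p = 0.0981), and it held in 7 of 18 alternatives.

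The receptors and factors themselves showed no call. Of 35 regulators of P450 genes 25 were measured, 13 were above 0 and 12 below, and the median was 0.0048. PXR (Nr1i2) was at 0.47 ± 0.21 (SE, adjusted p = 0.268), CAR (Nr1i3) at −0.34 ± 0.24 (adjusted p = 0.499) and HNF4A at −0.08 ± 0.19 (adjusted p = 0.876). The 4 with the lowest p were Rxrb, a partner of nuclear receptors, at −0.28, the circadian factor Tef at 0.41, the coactivator Ppargc1a at 0.66 and PXR. Bcl6 had the largest fold change of the list, −1.40 ± 0.67 (SE, adjusted p = 0.312 with limma). Its WT arrays were spread from 6.83 to 9.90, and the groups overlapped. Ahr was not detected on any array. Of the AhR targets outside the P450s 3 of 6 were measured and all were above 0, with 0 called.

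Among the measured genes for electron transfer and haem 0 passed the test. P450 oxidoreductase (Por), the main electron donor, was not measured here. Of 12 electron donors and partners 7 were measured, and their fold changes lay between −0.17 and 0.29, the highest that of Cyb5r1, a reductase of cytochrome b5. Of 14 genes of haem synthesis and breakdown 13 were measured, 8 above 0 and 5 below. Alas1, the rate-limiting enzyme of haem synthesis in the liver, was at 0.44 ± 0.31 (SE, adjusted p = 0.504).

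Zonal markers were compared because Cyp2e1, Cyp1a2 and Cyp2f2 differ in their place in the lobule. The shares of all genes called were 1.36% lower and 1.18% higher. Of 8 P450 genes of the zone around the central vein 7 were measured and 0 were called, with 4 above 0 and a median of 0.05. Of the 17 genes of that zone outside the P450s, 15 were measured, 6 above 0 and 9 below with a median of −0.06, and 3 were lower in KO: the transcription factors Tbx3 (−1.50, adjusted p = 0.0228) and Sp5 (−0.66, adjusted p = 0.0278) and the ammonium transporter Rhbg (−0.88, adjusted p = 0.0285). Glutamine synthetase (Glul) was detected on 1 KO array and 4 WT arrays, with a probe near background in KO. Its fold change of −0.52 (adjusted p = 0.078) was −0.22 at an offset of 50 and −0.15 without background correction. Of 16 portal genes 11 were measured and 1 was higher, the urea cycle enzyme Ass1 (0.66, adjusted p = 0.0182), while Cyp2f2 was at −0.44. With median scaling Ass1 was at 0.47 (adjusted p = 0.273) and Sp5 at −0.70 (adjusted p = 0.0739), and neither passed the test. The calls of all 4 genes ended when single arrays were left out: that of Tbx3 without KO 2, KO 3, WT 2, WT 3 or WT 4, that of Sp5 without KO 2, KO 3, KO 4, WT 1, WT 2 or WT 3, that of Rhbg without KO 2, KO 3, KO 4, WT 2, WT 3 or WT 4, and that of Ass1 without KO 3, WT 2, WT 3 or WT 4 (adjusted p up to 0.0999).

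Sex-biased P450 genes were set beside Cyp2d9. Of 4 male-biased P450 genes measured 1 was lower in KO, the oxysterol hydroxylase Cyp7b1 (−1.85, adjusted p = 8.02e-04), and Cyp2d9 was the 1 gene of this list that belongs to families 1 to 3. The other two, Cyp4a12a and Cyp4a12b, were at 0.02 and 0.04 (adjusted p of 0.979 and 0.957), and below 0 with median scaling. Of 12 female-biased P450 genes 2 were measured, Cyp4a14 and Cyp17a1, both higher and neither from families 1 to 3. The calls of Cyp7b1 and Cyp4a14 held with any 1 array left out, and that of Cyp17a1 ended without KO 3, WT 2 or WT 3 (adjusted p up to 0.0768). The female-biased members of families 1 to 3 on the array, among them Cyp2b9, Cyp2b13, Cyp2c40, Cyp3a16, Cyp3a41a and Cyp3a44, were not detected on 4 or more arrays, Cyp2b9 being detected on KO 1 alone and the other 5 on none. Cyp2b10, on the same list, was detected on a few arrays as given above. Outside families 1 to 3, 22 P450 genes were counted, and 3 were higher and 2 lower in KO, beside 1.18% and 1.36% of all genes.

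Markers of other liver cells were read on the same arrays, where 1.36% of all genes were called lower and 1.18% higher. Kupffer cell markers were below 0 in 8 of 8 measured (median −0.43, summed level 1743 to 2329 on KO arrays and 1867 to 3130 on WT arrays), and stellate cell markers above 0 in 7 of 7 (median 0.24, 2788 to 4109 on KO arrays and 2679 to 2927 on WT arrays), with 0 called in either list. Of 9 measured endothelial markers 6 were above 0 and 0 were called, and of 7 cholangiocyte markers 2 were measured and 0 called. Of 9 neutrophil markers 4 were measured, all below 0, and 1 was lower, Lcn2 (−4.30, adjusted p = 0.0062), which hepatocytes also make. Their part in the P450 values was not tested.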

How the data were processed

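Liver RNA of 4 Snd1 KO and 4 WT male mice was hybridised to Illumina MouseRef-8 v2.0 bead arrays, 1 per animal, which the study describes as biological quadruplicates. The authors deposited bead-averaged probe intensity on a linear scale, not normalized (75.2 to 22138), with a detection p-value of each probe against the negative controls of its array. The authors also deposited processed intensity, normalized between arrays, which served as an alternative. The sources used here name no scanner or normalization software for them.

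In R 4.3.3 with limma 3.58.1 the intensity was background-corrected with normexp (negative controls inferred from detection p-values, offset 16), log2-transformed and quantile-normalized. The offset compresses fold changes of dim probes, and quantile normalization hides any change in total RNA. The platform annotation gave 1 gene symbol for 23978 of 25697 probes, several for 0 and none for 1719. Named probes were kept when detected (p-value under 0.05) on 4 or more arrays (10945), and each gene was represented by its brightest kept probe, which gave 8134 genes. KO and WT were compared with lmFit and eBayes, two-sided and with no covariate, and a gene was called at a Benjamini-Hochberg adjusted p under 0.05. Fold changes are KO minus WT. Where no KO array detected a gene, the fold is a bound against the lowest detected signal of each array. Named genes were the called members, the lowest p of each subfamily, Cyp2d9, Cyp2e1, Cyp2d12, Cyp2u1 and Cyp2f2, members with an array standing apart, and up to 4 genes of each further list. CAR, HNF4A, Alas1, Cyp2d neighbours and others outside that rule were chosen after their values were seen. The members and lists were chosen with earlier results of these data known. The analysis was tested on simulated data. Alternatives were another offset, no background correction, median scaling, no filter, a strict filter, processed values, mean of probes, array weights, a replicate block and arrays left out. The gene table and promoter windows were those of GRCm38.p6, and windows were aligned with Biopython 1.88.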

Additional observations from a re-analysis of the deposited data

Results flagged for a closer look

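Single arrays stood apart from the rest of their group in 4 of the 60 groups of 4 arrays that were examined, and chance gives about 1 in 20. All 4 were on KO 1. Its level of Cyp2d40 was 9.38, against 8.16 to 8.32 for KO 2, KO 3 and KO 4, and its level of Cyp2u1 was 4.99, against 5.34 to 5.36 for those arrays. Cyp2b9 was at 7.12 there, against 4.29 to 4.38, and Cyp2b23 at 5.08, against 4.35 to 4.37. Both Cyp2b genes were detected on KO 1 alone, so the array that stands apart is also their only detection. The rate of 1 in 20 is therefore no measure for them.

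A pair of genes under the detection limit, which the main comparison did not use, were detected more often in KO. Cyp1b1 was detected on 3 KO arrays and 0 WT arrays (4.40 to 4.49 on KO arrays and 4.25 to 4.35 on WT arrays). A probe of Cyp2b10 was detected on 2 KO arrays and 0 WT arrays (4.33 to 4.83 on KO arrays and 4.12 to 4.37 on WT arrays). Neither difference was in the main comparison, and with no detection filter 0 of the 45 members were called.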

How the results depend on the processing

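The directions of Cyp2d40, Cyp2d12, Cyp2d9, Cyp2f2, Cyp2a5 and the 3 Cyp3a genes were kept under every alternative in which they could be fitted, and the calls were not. Cyp2d40 kept its call in 8 of 18 alternatives (adjusted p 7.16e-05 to 0.117) and Cyp2d12 in 7 of 17 (0.001 to 0.0957), while Cyp2f2, not called, passed in 5. The numbers of members and of all genes called were 2 and 97 with median scaling, 0 and 96 without the detection filter, 1 and 183 with the strict filter, which Cyp2d12, Cyp2g1 and Cyp2s1 did not pass, and 11 and 2190 with array weights. With 1 array left out they were 0 to 6 and 41 to 517, lowest for members without KO 3, WT 2, WT 3 or WT 4 and highest without KO 1. A replicate block gave 0 members and 92 genes. Arrays with the same number had only weakly correlated deviations (−0.09 to 0.12 across genes). Whether the numbers pair littermates cannot be told from such correlations, and the study names no pairing of the arrays. Outside the members 9 genes of the lists were called, and 4 without the filter, 6 with median scaling, 5 with the block (without Tbx3, Sp5, Rhbg and Gstm1), 54 with array weights and 3 to 16 with 1 array left out. HNF4A ran from −0.208 to 0.0517 with 1 array left out. The members' median was −0.158 with median scaling, and −0.0493 to 0.103 with 1 array left out.

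Genes near 0 changed sign. With median scaling Cyp2a12 was at −0.0847, Cyp2d22 at −0.0228, Cyp2d26 at −0.158, Cyp2e1 at −0.0712, Cyp4a12a at −0.203 and Cyp4a12b at −0.125, with array weights Cyp2c70 was at 0.0632, and without KO 1 and KO 4 Cyp2e1 was at −0.0075 and Cyp2g1 at −0.083. With 1 array left out the fold change ran from −0.165 to 0.103 in Cyp1a2, −0.139 to 0.0834 in Cyp2c37, −0.126 to 0.00998 in Cyp2d10, −0.0676 to 0.138 in Cyp2d26, −0.0493 to 0.162 in Cyp2g1, −0.312 to 0.083 in Cyp2j9, −0.0554 to 0.0841 in Cyp2s1, −0.162 to 0.166 in Cyp4a12a and −0.108 to 0.231 in Cyp4a12b. The cause of these changes was not tested. Signal over background limits Cyp2d12, Cyp2g1, Cyp2s1, Cyp2u1 and Cyp2c55, whose probes were dim.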
